A study of Mus musculus with 17 samples.

Results

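Hcn2, Hcn3 and Hcn4 encode pore-forming subunits of hyperpolarization-activated cyclic nucleotide-gated (HCN) channels, and Pex5l encodes Trip8b, a brain auxiliary subunit of these channels. These 4 genes were taken by symbol, by a rule that uses no measured value but was set with earlier results of these data known, from 55450 genes counted in 17 mouse hippocampus libraries. All 4 were among the 17615 genes that passed the low count filter. They carried the Ensembl identifiers ENSMUSG00000020331 (Hcn2), ENSMUSG00000028051 (Hcn3), ENSMUSG00000032338 (Hcn4) and ENSMUSG00000027674 (Pex5l).

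HCN channels open when the membrane becomes more negative and carry a mixed sodium and potassium inward current, known as Ih. In hippocampal pyramidal cells this current sits largely in the dendrites, where it lowers input resistance and shortens synaptic potentials. Cyclic AMP binds a domain in the channel's C terminus and eases opening, while Trip8b binds the same channels, sets where they are inserted and reduces the effect of cyclic AMP. HCN2 responds strongly to cyclic AMP and is widely expressed in brain, HCN3 responds little, and HCN4, the slowest to open, is best known from the sinoatrial node and the thalamus.

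The study asked whether raising Kcna1, a potassium channel gene, by CRISPR activation in the epileptic hippocampus alters gene expression there. Epilepsy was induced in adult C57BL/6J mice with kainic acid injected into the right amygdala, and AAV9 vectors were placed later in the right ventral hippocampus. The vectors carried a nuclease-dead Cas9 activator that depends on doxycycline, with its inducer driven by a Camk2a promoter to favour excitatory neurons, while the dissected tissue holds other cells too. Doxycycline was given in the diet before tissue was taken. The 3 groups were control mice with the guide sgLacZ, which targets no mouse gene (n = 5 libraries, here control sgLacZ, the sham controls of the study), epileptic mice with sgLacZ (n = 6, epileptic sgLacZ) and epileptic mice with the guide against Kcna1 (n = 6, epileptic sgKcna1). All 3 groups therefore received vector and activator, and no control group received sgKcna1. The labels number the samples in 1 series and do not state whether an animal gave more than 1 sample, so P-values measure the spread between these samples only.

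Between 11839240 and 28311328 reads per library fell in genes. CPM is the count scaled to 1000000 reads in genes. The detection limit, taken as 3 reads, was between 0.106 and 0.253 CPM on that scale. Levels below were further scaled by TMM, a factor for each library that ranged from 0.906 to 1.06. The share of unmapped reads ranged from 19.5% to 27.7% in control sgLacZ, from 11.0% to 24.1% in epileptic sgLacZ and from 19.1% to 41.5% in epileptic sgKcna1. The extremes were epileptic sgLacZ 4 and epileptic sgKcna1 12, and these 2 libraries are left out where stated below. By Xist and Y-linked reads, 2 of 5 control sgLacZ, 4 of 6 epileptic sgLacZ and 2 of 6 epileptic sgKcna1 libraries were female. Markers of CA1 pyramidal cells summed to between 580 and 787 CPM, and those of dentate granule cells to between 213 and 507 CPM, with none of the measured markers of either list at 0 in any group. Kcna1 itself was at 25.5 to 44.0 CPM in control sgLacZ, at 16.9 to 56.7 in epileptic sgLacZ and at 13.9 to 29.5 in 5 libraries of epileptic sgKcna1, with 133 CPM in epileptic sgKcna1 12. The difference in Kcna1 between the epileptic groups was 0.32 on the log2 scale (SE 0.47, edgeR quasi-likelihood adjusted P = 0.706), so the target's level did not check the guide labels and groups are named as labelled.

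On GRCm38.p6 Hcn2 lies at chr10:79716634-79736108, Hcn3 at chr3:89146775-89160284, Hcn4 at chr9:58822949-58863175 and Pex5l at chr3:32947926-33143302. The 250 bases before the annotated start are shown for Hcn2 and Hcn4 because these are the HCN genes with the highest and the lowest level here. Both matched the RefSeq promoter table of that build, and Hcn3 and Pex5l did not. Capitals mark GC boxes, the letters GGGCGG on either strand, which are bound by Sp family factors, and the first 2 boxes of Hcn2 abut without overlap.
Hcn2 chr10:79716384-79716633, plus strand: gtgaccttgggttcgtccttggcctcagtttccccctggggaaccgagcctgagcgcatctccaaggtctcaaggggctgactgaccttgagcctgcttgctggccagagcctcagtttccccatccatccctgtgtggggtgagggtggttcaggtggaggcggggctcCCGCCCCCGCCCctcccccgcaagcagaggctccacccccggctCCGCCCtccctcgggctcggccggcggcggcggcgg
Hcn4 chr9:58822699-58822948, plus strand: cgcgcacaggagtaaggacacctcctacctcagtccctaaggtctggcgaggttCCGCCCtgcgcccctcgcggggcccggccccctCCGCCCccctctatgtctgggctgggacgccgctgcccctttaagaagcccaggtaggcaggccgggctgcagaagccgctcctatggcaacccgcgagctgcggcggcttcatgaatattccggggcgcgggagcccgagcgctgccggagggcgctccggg
Hcn2 held 3 GC boxes and Hcn4 held 2, and 32.7% of 32851 windows of this length held at least 1. The G and C content was 70.4% for Hcn2 and 71.2% for Hcn4, against a median of 52.4% over all windows. A cyclic AMP response element (TGACGTCA, in 1.55% of windows), an E-box (CACGTG, in 6.02%) and part of the binding site of the REST repressor (TTCAGCACC, in 0.301%), each searched on both strands, were not among the letters of either window.

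Per length of exon, Hcn2 was the most abundant of the 4 transcripts in control sgLacZ, at 43.7 ± 2.94 CPM per kilobase (SD, n = 5). Pex5l followed at 25.2 ± 1.56, Hcn3 at 1.30 ± 0.160 and Hcn4 at 0.249 ± 0.177 CPM per kilobase. In control libraries no neighbours in this order overlapped, since Hcn4 reached at most 0.548 and Hcn3 was at least 1.10 CPM per kilobase. In epileptic sgLacZ the order of the means was the same, at 56.7 ± 9.19 for Hcn2, 24.2 ± 3.20 for Pex5l, 2.20 ± 0.952 for Hcn3 and 0.937 ± 0.716 for Hcn4 (SD, n = 6). Hcn3, from 1.25 CPM per kilobase, and Hcn4, up to 2.37, overlapped there. In epileptic sgKcna1 the means were 45.0 ± 9.61 for Hcn2, 22.8 ± 2.56 for Pex5l, 1.68 ± 0.335 for Hcn3 and 0.650 ± 0.393 for Hcn4, in CPM per kilobase. The ranges of Hcn3 and Hcn4 across libraries overlapped again, and epileptic sgKcna1 1 held the highest value of both, at 2.16 and 1.42. Lengths were those of merged exons in the annotation of the older mm9 build.

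**Figure D1:**
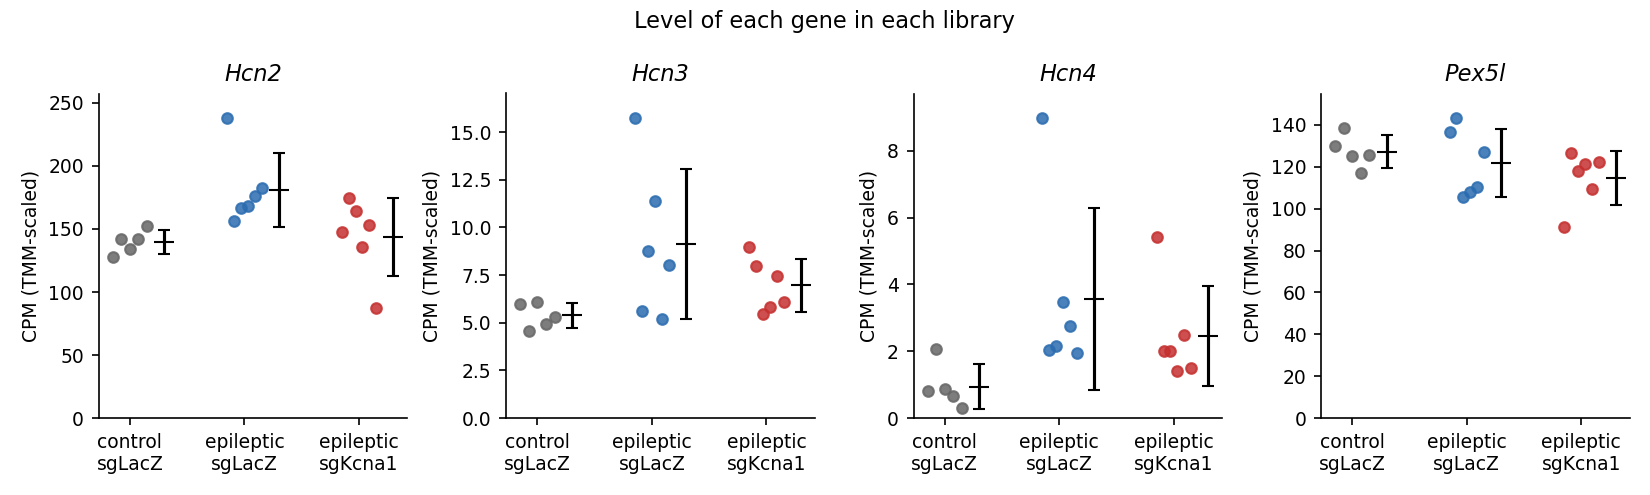
CPM of Hcn2, Hcn3, Hcn4 and Pex5l in each library (points), with the group mean and SD (bars), in control sgLacZ (n = 5), epileptic sgLacZ (n = 6) and epileptic sgKcna1 (n = 6). Each panel has its own axis from 0. All epileptic sgLacZ points of Hcn2 lie above the control points, and for Hcn4 1 epileptic sgLacZ library stands at 8.99 CPM.

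The first comparison, epileptic sgLacZ against control sgLacZ, asked how these genes differed in the epileptic hippocampus without the Kcna1 guide. Hcn4 and Hcn3 rose. Hcn2 was higher in all epileptic sgLacZ libraries than in all controls but did not pass the adjusted threshold of 0.05. Pex5l showed no difference past the threshold. So 2 of the 4 genes were called higher and 0 lower, where 7.26% of all tested genes were called higher and 3.76% lower, 11% in all. In bulk tissue, fewer cells of a type and less RNA per cell cannot be told apart.

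Hcn4 was scarce in control sgLacZ, where the libraries gave 0.81, 2.08, 0.88, 0.67 and 0.29 CPM, from 5 to 50 reads each. In epileptic sgLacZ the lowest library was at 1.95, the median at 2.46 and the highest at 8.99 CPM, from 39 to 264 reads. The groups overlapped through the single control library at 2.08 CPM, and 4 of the 6 epileptic libraries lay above all controls. The mean rose from 0.946 ± 0.673 to 3.56 ± 2.72 CPM (SD, n = 5 and 6), a log2 fold change of 1.88 (SE 0.51, 95% interval 0.89 to 2.87, edgeR quasi-likelihood adjusted P = 0.0364). An exact two-sided permutation test of the mean log2 CPM gave P = 0.00649, where the smallest P that 6 against 5 libraries allow is 0.00216. Epileptic sgLacZ 4, at 8.99 CPM, held the highest level in that group, and without it the log2 fold change was 1.35 (adjusted P = 0.0955). The call was also lost without any single control library or without epileptic sgLacZ 7 or 9, at log2 fold changes of 1.67 to 2.41 (edgeR adjusted P from 0.0594 to 0.0968). It was lost with sex as a covariate too (adjusted P = 0.0525). The adjusted P depends on the P-values of all tested genes as well as on Hcn4. Without control sgLacZ 14 the log2 fold change was 2.41, and the unadjusted edgeR P was 0.00028, against 0.00152 with all libraries. With epileptic sgLacZ 4 and epileptic sgKcna1 12 both left out, the log2 fold change of Hcn4 was 1.34 (adjusted P = 0.0397).

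HCN4 is abundant in thalamus and in the medial habenula, which adjoin the hippocampus, so markers of both were followed. Summed medial habenula markers were at 3.79 to 5.19 CPM in control sgLacZ, 3.38 to 20.3 in epileptic sgLacZ and 2.20 to 3.67 in epileptic sgKcna1, with the 20.3 in epileptic sgLacZ 4. Summed thalamus markers ranged from 179 to 262, from 155 to 341 and from 143 to 338 CPM in the same order, and epileptic sgLacZ 4 was again the highest of its group. No measured marker of either list was at 0 across a whole group. In the other 5 epileptic sgLacZ libraries Hcn4 was at 1.95 to 3.46 CPM while the thalamus sum was at 155 to 211 CPM, inside or below the control range. Single thalamus markers could differ from the sum. In epileptic sgLacZ 5, Tcf7l2 (20.5 CPM), Rgs16 (12.7) and Slc17a6 (31.5) lay above the highest controls (14.1, 9.45 and 30.4). Its other thalamus markers did not. Plekhg1 was at 11.7 and 12.1 CPM in epileptic sgLacZ 7 and 9, above the highest control, 8.72. The medial habenula sum of these 5 libraries was at 5.38, 5.36, 3.38, 9.95 and 5.38 CPM, above the control range in 4 of them, and 1 of 5 measured habenula markers and 0 of 9 thalamus markers were called higher in epileptic sgLacZ against control. The part of these markers in the Hcn4 level was not tested.

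Hcn3 gave 6.01, 4.58, 6.10, 4.93 and 5.30 CPM in control sgLacZ. In epileptic sgLacZ its lowest value was 5.20, its median 8.41 and its highest 15.8 CPM. Of the 6 epileptic libraries 4 lay above all controls, and the other 2 lay within the control range. The mean went from 5.38 ± 0.665 to 9.13 ± 3.95 CPM, a log2 fold change of 0.77 (SE 0.24, 95% interval 0.29 to 1.24), with an edgeR quasi-likelihood adjusted P of 0.0499957, which only just passed the threshold. The exact permutation test gave P = 0.0433. Without epileptic sgLacZ 4, which held the 15.8 CPM, the log2 fold change was 0.54 (adjusted P = 0.132). Leaving out 1 library kept the call only for epileptic sgLacZ 5, epileptic sgLacZ 8 or epileptic sgKcna1 12.

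Hcn2 gave 128, 142, 134, 142 and 153 CPM in control sgLacZ, against a lowest value of 156, a median of 172 and a highest of 238 CPM in epileptic sgLacZ. The groups did not overlap, as was the case for 4.39% of all tested genes. The mean was 140 ± 9.38 in control and 181 ± 29.4 CPM in epileptic sgLacZ, a log2 fold change of 0.38 (SE 0.14, 95% interval 0.10 to 0.66, edgeR quasi-likelihood adjusted P = 0.0792). The exact permutation test, unadjusted over its 12 uses on these genes, gave P = 0.00433. With epileptic sgLacZ 4 and epileptic sgKcna1 12 both left out, the log2 fold change was 0.28 and the adjusted P 0.0237. It also passed without epileptic sgLacZ 5 alone or epileptic sgKcna1 12 alone.

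Pex5l gave 130, 139, 125, 117 and 126 CPM in control sgLacZ. In epileptic sgLacZ the lowest, median and highest values were 105, 119 and 143 CPM, so the epileptic libraries spread on both sides of the controls. The log2 fold change was -0.06 (SE 0.10, edgeR quasi-likelihood adjusted P = 0.687), with a 95% interval of -0.26 to 0.14.

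**Figure D2:**
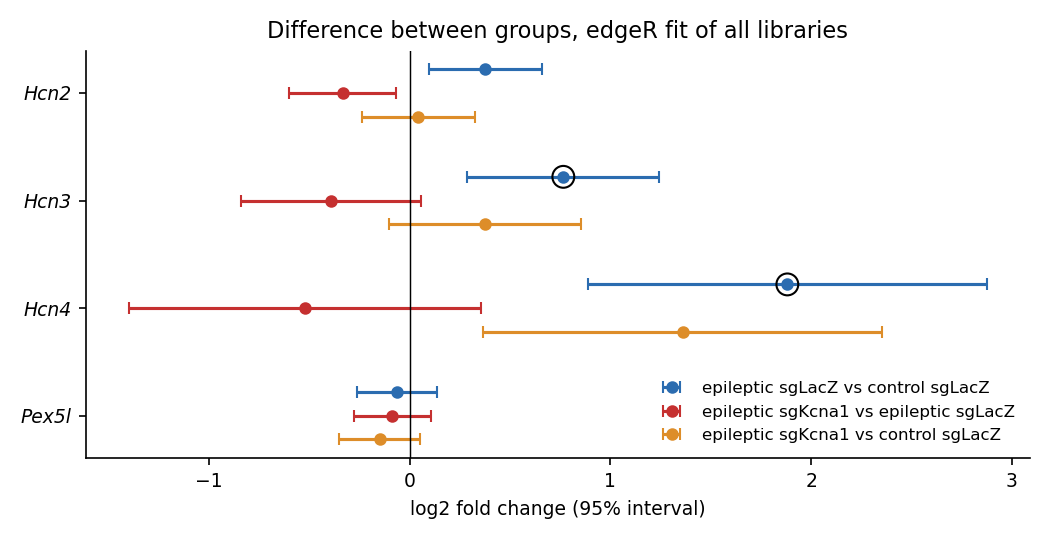
Log2 fold change of each gene in the 3 comparisons, with 95% intervals, from 1 edgeR fit of all 17 libraries. Black rings mark an adjusted P under 0.05, which Hcn3 (0.77) and Hcn4 (1.88) reached in epileptic sgLacZ against control sgLacZ. The 3 comparisons share libraries.

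The share of unmapped reads moved with the Hcn2 level across libraries, at a Pearson r of -0.88 with its log2 CPM. Without epileptic sgLacZ 4 and epileptic sgKcna1 12 that r was -0.55. For Hcn3 it was -0.64, or -0.78 without these 2 libraries, and for Hcn4 -0.39, or -0.27. For Pex5l it was 0.07, or 0.35. Epileptic sgLacZ 4 had the lowest unmapped share, 11.0%, and the highest Hcn2 level, 238 CPM. Epileptic sgKcna1 12 had the highest unmapped share, 41.5%, and the lowest Hcn2 level, 87.2 CPM. With the unmapped share as a covariate the log2 fold changes in epileptic sgLacZ against control sgLacZ were 0.16 for Hcn2 (edgeR adjusted P = 0.305), 0.47 for Hcn3 (adjusted P = 0.207) and 1.38 for Hcn4 (adjusted P = 0.123). The mean unmapped share was 24.1% ± 3.38 in control and 18.6% ± 5.01 in epileptic sgLacZ (SD, n = 5 and 6), so the covariate and the groups partly overlap.

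**Figure D3:**
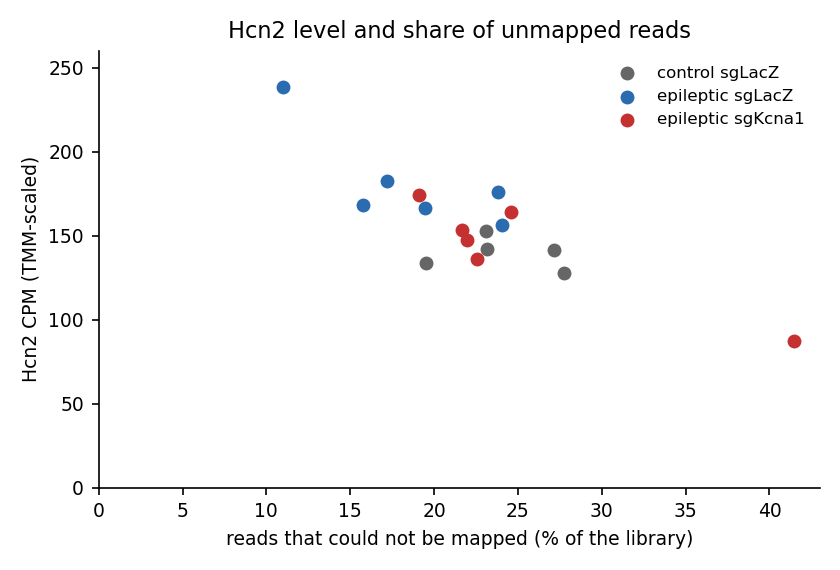
Hcn2 CPM against the percentage of reads that could not be mapped, 1 point for each of the 17 libraries, coloured by group. The library at 11.0% unmapped stands at 238 CPM and the library at 41.5% at 87.2 CPM, while the other 15 lie between 128 and 182 CPM.

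The second comparison, epileptic sgKcna1 against epileptic sgLacZ, asked what the Kcna1 guide changed in the epileptic hippocampus. No member passed the adjusted threshold, and 0% of all 17615 tested genes did. At an unadjusted P under 0.05 Hcn2 alone of the 4 passed, where 19.2% of all tested genes did, and DESeq2 and limma called 0 of the 4 after adjustment. All 4 fitted differences were below 0, with none past the threshold.

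Hcn2 in epileptic sgKcna1 had a lowest value of 87.2, a median of 151 and a highest of 174 CPM. Of these 6 libraries 4 lay below all epileptic sgLacZ libraries, and the other 2 overlapped them. The mean was 144 ± 30.7 against 181 ± 29.4 CPM (SD, n = 6 each), a log2 fold change of -0.33 (SE 0.14, 95% interval -0.60 to -0.07, edgeR quasi-likelihood adjusted P = 0.226). The exact permutation test gave an unadjusted P of 0.0281. With epileptic sgLacZ 4 and epileptic sgKcna1 12 both left out, the log2 fold change was -0.13 (adjusted P = 0.604). With the unmapped share as a covariate it was -0.11 for Hcn2 (edgeR adjusted P = 0.806). That covariate gave -0.06 for Hcn3, -0.06 for Hcn4 and -0.11 for Pex5l. The mean unmapped share was 25.2% in epileptic sgKcna1 and 18.6% in epileptic sgLacZ, so the covariate and the groups partly overlap.

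For Hcn4 the lowest, median and highest values in epileptic sgKcna1 were 1.40, 2.01 and 5.41 CPM, and 4 of the 6 libraries lay within the range of epileptic sgLacZ. The log2 fold change was -0.52 (SE 0.45, 95% interval -1.40 to 0.36, edgeR quasi-likelihood adjusted P = 0.497). It was 0.013 without epileptic sgLacZ 4 and -0.92 without epileptic sgKcna1 1, the library at 5.41 CPM. Hcn3 had 5.45, 6.76 and 8.96 CPM as its lowest, median and highest values, all inside the range of epileptic sgLacZ, and a log2 fold change of -0.39 (SE 0.23, 95% interval -0.84 to 0.06, edgeR adjusted P = 0.327). Pex5l had 91.1, 120 and 126 CPM, with 1 library below all of epileptic sgLacZ, and a log2 fold change of -0.09 (SE 0.10, 95% interval -0.28 to 0.10, edgeR adjusted P = 0.616).

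The third comparison set the treated epileptic hippocampus against control sgLacZ, and it shares its libraries with the other 2 comparisons. No member passed the adjusted threshold by edgeR, DESeq2 or limma, and 0% of all tested genes passed it by edgeR. Hcn4 was at 2.47 ± 1.49 against 0.946 ± 0.673 CPM, a log2 fold change of 1.36 (SE 0.51, 95% interval 0.37 to 2.35, edgeR quasi-likelihood adjusted P = 0.674, unadjusted P = 0.0148). Only Hcn4 of the 4 had an unadjusted P under 0.05, as did 6.77% of all tested genes, and 2 of its 6 treated libraries lay above all controls. The exact permutation test of Hcn4 gave P = 0.0195.

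Hcn3 was at 6.96 ± 1.39 against 5.38 ± 0.665 CPM, which is 0.37 on the log2 scale (SE 0.24, 95% interval -0.10 to 0.85, adjusted P by edgeR 0.771). Hcn2 was at 144 ± 30.7 against 140 ± 9.38 CPM, with a log2 fold change of 0.04 and a 95% interval of -0.24 to 0.32 (edgeR adjusted P = 0.954). Pex5l was at 115 ± 12.9 against 127 ± 7.88 CPM, with a log2 fold change of -0.15 and a 95% interval of -0.35 to 0.05 (edgeR adjusted P = 0.782). The intervals of Hcn2, Hcn3 and Pex5l exclude a change of 1 on the log2 scale in this comparison, and that of Hcn4 does not.

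Ratios within a library do not depend on how libraries are scaled, but their tests took no account of the share of unmapped reads. Hcn4 reads came to a mean of 0.684% of Hcn2 reads in control sgLacZ (range 0.193% to 1.47%), 1.85% in epileptic sgLacZ (1.07% to 3.77%) and 1.73% in epileptic sgKcna1 (1.03% to 3.66%). The mean log2 ratio of Hcn4 to Hcn2 was higher by 1.58 in epileptic sgLacZ than in control (exact permutation P = 0.0130) and by 1.48 in epileptic sgKcna1 than in control (exact permutation P = 0.0152). Between the epileptic groups it differed by -0.10 (exact permutation P = 0.775). The relative rise of Hcn4 over Hcn2 was thus measured in both epileptic groups, which were set against the same 5 controls, and no difference between the guides was detected.

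Pex5l reads came to a mean of 91.5% of Hcn2 reads in control sgLacZ (82.4% to 102%), 68.2% in epileptic sgLacZ (57.2% to 91.9%) and 84.5% in epileptic sgKcna1 (61.7% to 140%). The mean log2 ratio of Pex5l to Hcn2 differed by -0.44 between epileptic sgLacZ and control (exact permutation P = 0.0130), so there were fewer Pex5l reads per Hcn2 read in epileptic sgLacZ. With the counts of both strands summed, the difference was -0.22 (exact permutation P = 0.0303). Between the epileptic groups the log2 ratio differed by 0.27 (exact permutation P = 0.212), and between epileptic sgKcna1 and control by -0.17 (exact permutation P = 0.437). For Hcn3 to Hcn2 the log2 ratio differed by 0.30 in epileptic sgLacZ against control (exact permutation P = 0.242). These are 9 ratio tests with unadjusted P-values.

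Pex5l is counted with a limit that hardly touches Hcn2 and Hcn4. The libraries carried no strand information, and a read lying in exons of genes on both strands was left out of the unstranded count used here, whereas the sum of the deposited forward and reverse counts keeps it. For Pex5l that sum exceeded the unstranded count by a factor of 1.13 to 1.22 in control sgLacZ, 1.16 to 1.48 in epileptic sgLacZ and 1.04 to 1.42 in epileptic sgKcna1. The mean factor was 1.18 ± 0.0381 in control and 1.38 ± 0.117 in epileptic sgLacZ, a difference of 0.193 (exact permutation P = 0.0108). More reads were thus shared with the other strand in epileptic sgLacZ. For epileptic sgKcna1 the mean factor was 1.29 ± 0.131, which differed from control by 0.105 (exact permutation P = 0.123).

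With the strands summed, Pex5l was at 136 ± 5.98 CPM in control, 150 ± 17.1 in epileptic sgLacZ and 133 ± 19.4 in epileptic sgKcna1, and its log2 fold change in epileptic sgLacZ against control turned from -0.06 to 0.14 (edgeR adjusted P = 0.352). The long noncoding transcript 4930419G24Rik, at chr3:33024777-33088607 and on the opposite strand within Pex5l in the mm9 annotation, had strand-summed counts of 2 to 24 reads in control, 8 to 285 in epileptic sgLacZ and 1 to 73 in epileptic sgKcna1. Its unstranded counts were at most 5 reads. These reads are a small part of those that Pex5l shared, since in epileptic sgLacZ 4 Pex5l went from 4005 unstranded to 5696 summed reads, and the gene that shares the rest was not identified. Without strand, reads of Pex5l and of such a partner cannot be told apart. The same factor was 1.02 to 1.18 in control sgLacZ for Hcn3, whose end overlaps Pklr, and the summed strands gave Hcn3 a log2 fold change of 0.67 (edgeR adjusted P = 0.0582).

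**Figure D4:**
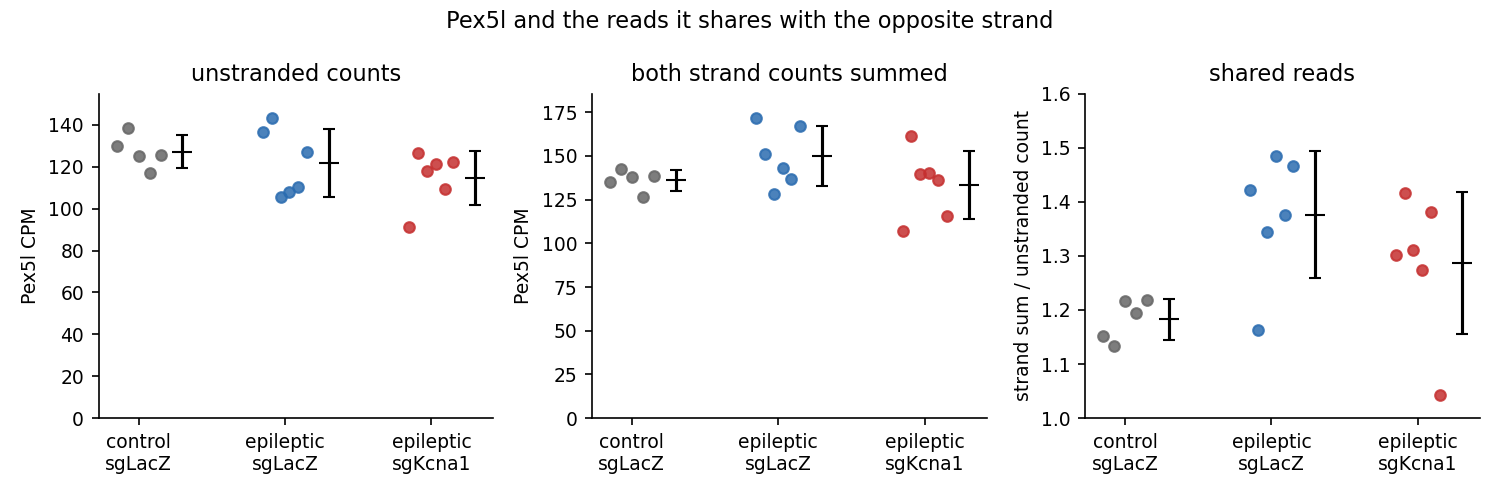
Pex5l by library (points) with group mean and SD (bars): CPM from unstranded counts, CPM from both strand counts summed, and the factor between the counts, on an axis from 1. The factor averages 1.18 in control sgLacZ and 1.38 in epileptic sgLacZ, and the group means of the first 2 panels stand in opposite order for these groups.

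The genes around the channels were taken as 6 lists of 53 genes, also chosen with earlier results known, of which 52 passed the low count filter. In epileptic sgLacZ against control sgLacZ, 10 of the 52 rose (19.2%) and 2 fell (3.85%), beside 7.26% and 3.76% of all tested genes. The median log2 fold change was 0.21 over the 52 genes and 0.02 over all genes. Each of these 12 calls was lost without epileptic sgLacZ 4 (edgeR adjusted P from 0.0643 to 0.105). None of the 52 passed either without control sgLacZ 13, 14, 16 or 23 or without epileptic sgLacZ 7 or 9. By contrast, 22 passed without epileptic sgLacZ 5 and 20 without epileptic sgKcna1 12. The adjusted P rests on all tested genes, and the share of these called in each such fit is not given here. These counts are therefore not read as a result about the lists.

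Adenylyl cyclases, which make cyclic AMP, held 3 of the 10 risen genes among 8 tested, with 0 lower. Adcy9 rose from 4.93 ± 1.12 to 26.5 ± 24.3 CPM, or by 2.43 on the log2 scale (SE 0.48, adjusted P by edgeR 0.0310). Adcy6 rose from 11.4 ± 2.71 to 25.0 ± 10.8 CPM, with a log2 fold change of 1.13 (adjusted P = 0.0330) that was 0.61 with the strands summed. Adcy3 had a log2 fold change of 2.36 (adjusted P = 0.0404) but 0.20 with the strands summed (adjusted P = 0.190), so its count is uncertain.

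Cyclic nucleotide phosphodiesterases, which break cyclic AMP and cyclic GMP down, also held 3 risen genes, among 10 tested, with 0 lower. Pde4d rose from 3.02 ± 1.33 to 10.7 ± 8.19 CPM (log2 fold change 1.83, edgeR adjusted P = 0.0355) and Pde10a from 24.4 ± 3.93 to 36.6 ± 8.21 CPM (log2 fold change 0.58, adjusted P = 0.0349). Pde8b, which is specific for cyclic AMP, had a log2 fold change of 0.77 (adjusted P = 0.0404), and of 0.21 with the strands summed (adjusted P = 0.0968). Genes that make and genes that degrade cyclic AMP were thus among those called higher with all libraries. Each of these calls was lost without epileptic sgLacZ 4.

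Of 8 cyclic AMP effectors, 0 passed the threshold by edgeR and 2 had an unadjusted P under 0.05, beside 34.7% of all tested genes. The nearest were the regulatory subunits of protein kinase A, Prkar1b, at a log2 fold change of 0.38 (adjusted P = 0.0924), and Prkar2a, at -0.38 (adjusted P = 0.144). Prkar2a was lower in all epileptic sgLacZ libraries than in all controls, and 2 of the 52 listed genes, the other being Ppp3ca, did not overlap, beside 4.39% of all tested genes.

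Kinases and phosphatases known to act on HCN channels held 2 risen genes and 1 fallen among 7 tested. Src, a tyrosine kinase that modifies the channels, rose by a log2 fold change of 0.37 (edgeR adjusted P = 0.0398), and Mapk14, the p38 kinase, by 0.37 (adjusted P = 0.0420). Ppp3ca, the catalytic subunit of calcineurin, fell from 5188 ± 501 to 3067 ± 835 CPM, a log2 fold change of -0.76 (adjusted P = 0.0436).

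Of 12 accessory and trafficking proteins, Flna, the actin cross-linker filamin A, rose (log2 fold change 0.72, edgeR adjusted P = 0.0376) and Vapa, an endoplasmic reticulum tethering protein, fell (log2 fold change -0.36, adjusted P = 0.0479), while 10 did not pass. Of 7 genes of the REST repressor complex, which has been linked to HCN channel repression in epilepsy, Sin3a, a corepressor scaffold, had a log2 fold change of 0.54 (adjusted P = 0.0423) and of 0.24 with the strands summed (adjusted P = 0.156). Rest itself had a log2 fold change of -0.30 (adjusted P = 0.365).

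**Figure D5:**
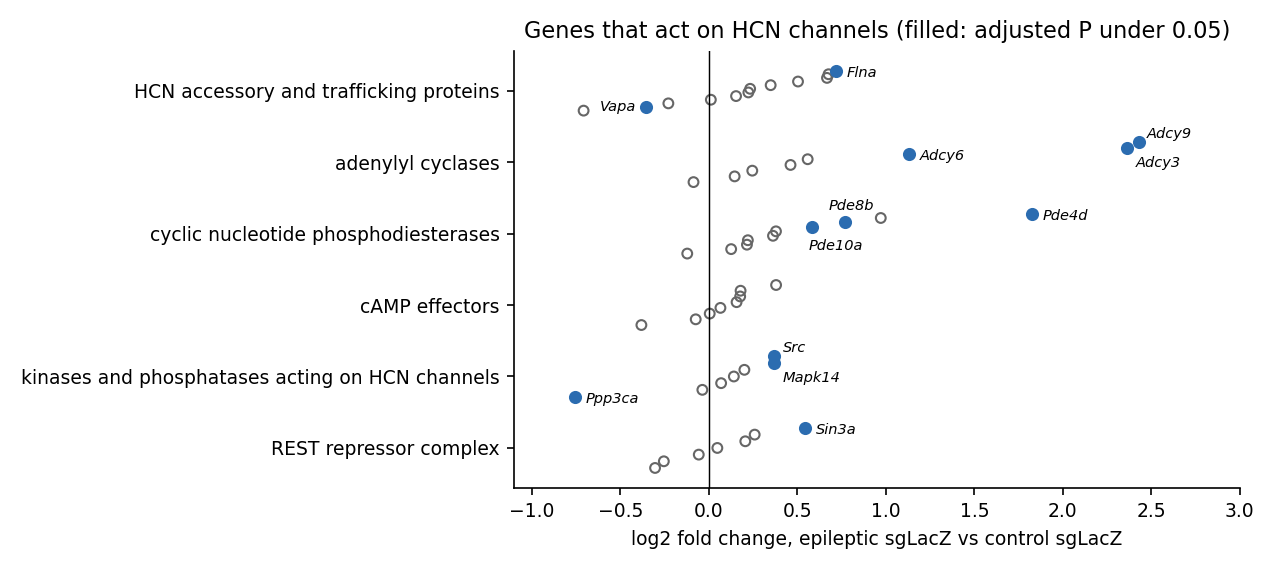
Log2 fold change in epileptic sgLacZ against control sgLacZ for the 52 tested genes of 6 lists around HCN channels, 1 point per gene. Filled, named points have an edgeR adjusted P under 0.05 (10 to the right of 0 and 2 to the left), and open points do not.

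In epileptic sgKcna1 against epileptic sgLacZ, 0 of the 52 passed by edgeR, 0 by limma and 1 by DESeq2, and 10 had an unadjusted P under 0.05, beside 19.2% of all tested genes. The median log2 fold change over the 52 was -0.12. The smallest P-values of each list belonged to Adcy9 (log2 fold change -1.76, edgeR adjusted P = 0.213) and Adcy6 (-0.65), to Pde10a (-0.45) and Pde4d (-1.11), to Flna (-0.53) and Vapa (0.24), to Prkaca, a catalytic subunit of protein kinase A (-0.16), and Prkar2a (0.35), to Ppp3ca (0.46) and Camk2b, a calcium and calmodulin dependent kinase (-0.24), and to Hdac2, a histone deacetylase (0.23), and Sin3a (-0.36). For Adcy9 the SDs were 24.3 CPM in epileptic sgLacZ and 1.53 in epileptic sgKcna1, around means of 26.5 and 7.86 CPM.

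In epileptic sgKcna1 against control sgLacZ, 0 of the 52 passed by edgeR, DESeq2 or limma, and 1, Prkar1b, had an unadjusted P under 0.05, at a log2 fold change of 0.42 (edgeR adjusted P = 0.674). Pde4b, a cyclic AMP phosphodiesterase, was the single gene of the 52 whose libraries did not overlap, at 60.2 ± 2.43 against 52.7 ± 1.43 CPM, where 1.14% of all tested genes did not overlap. The other genes with the smallest P-values were Prkar2b (log2 fold change 0.30), Pde8b (0.45), Adcy6 (0.48), Adcy3 (1.16), Src (0.17), Mapk14 (0.16), Grasp, a scaffold protein (0.29), Vapa (-0.12), Hdac1 (-0.13) and Rcor3, a corepressor (-0.18), none past the threshold.

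Summed markers of cell types were also compared between groups. Summed astrocyte markers were at 1603 to 1767 CPM in control sgLacZ, 1794 to 2246 in epileptic sgLacZ and 1724 to 2156 in epileptic sgKcna1, with 2 of 6 markers called higher in epileptic sgLacZ against control. Summed interneuron markers were at 1317 to 1627, 885 to 1486 and 1074 to 1665 CPM, with 0 of 8 markers called in epileptic sgLacZ against control. Summed CA3 pyramidal markers were at 285 to 363, 269 to 300 and 189 to 332 CPM, with 1 of 5 measured markers called lower. Summed oligodendrocyte markers were at 6331 to 9122, 4745 to 7023 and 2633 to 10221 CPM, with 0 called. No measured marker of these lists was at 0 across a group. Their part in the Hcn2, Hcn3 and Hcn4 levels was not tested.

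Over the 17 libraries, the log2 CPM of Hcn3 and Hcn4 had a Pearson r of 0.71 (0.54 with group means removed), that of Hcn2 and Hcn3 0.56 (0.40) and that of Hcn2 and Hcn4 0.51 (0.38). Pex5l had r values of 0.03 with Hcn2, -0.22 with Hcn3 and -0.25 with Hcn4, or 0.02, -0.16 and -0.10 with group means removed. Without epileptic sgLacZ 4 and epileptic sgKcna1 12 the Pex5l values were -0.19, -0.56 and -0.50. The r was then 0.55 for Hcn3 and Hcn4, 0.42 for Hcn2 and Hcn3 and 0.44 for Hcn2 and Hcn4. All these values thus rest partly on these libraries. These are descriptions over libraries that share groups, depth and mapping rate, and they carry no test.

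The genes whose log2 CPM followed each member most closely were sought among 11682 genes with a mean of at least 5 CPM. For Hcn2 high r values belonged to Panx2, a pannexin channel (0.953), Dclk2, a doublecortin-like kinase (0.938), Itga3, an integrin (0.937), and Cherp (0.936). Without epileptic sgLacZ 4 and epileptic sgKcna1 12 these were 0.880, 0.737, 0.730 and 0.814. For Hcn3 the 5 highest belonged to Gtf3c1, Clip1, Spock2, D15Ertd621e and Epm2aip1, at 0.931 to 0.942, and at 0.891 to 0.914 without those libraries. For Hcn4 they belonged to Abcb1a (0.871), Nhlrc3, Ptk7, Accn2 and Stab1 (0.834). For Pex5l the values were lower, from 0.748 for 2010300C02Rik through Setd8, 4933439F18Rik and Kcnd2, which encodes a potassium channel (0.708), to 0.693 for Zfp280b. Without those libraries the values were 0.794 to 0.874 for Hcn4 and 0.707 to 0.758 for Pex5l. With group means removed, the Hcn4 values were 0.751 for Abcb1a, 0.678 for Nhlrc3, 0.674 for Ptk7, 0.720 for Accn2 and 0.876 for Stab1. They were 0.910 to 0.934 for the genes named for Hcn2, 0.900 to 0.955 for Hcn3 and 0.695 to 0.747 for Pex5l.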

How the data were processed

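RNA from 17 hippocampus samples was made into polyadenylated RNA libraries. The kit named in the labels keeps no strand, while the methods of the study describe a stranded preparation. Forward and reverse counts were equal within 1% in each library, so unstranded counts were used. The authors deposited raw gene counts, made per the labels with STAR 2.7 on mm10, with reads mapping to several places not counted. The annotation release was not given in the sources used here. The 4 summary lines were left out of library sizes. Counts were fitted in 1 model of 3 groups with edgeR 4.0.16 (R 4.3.3, TMM scaling, filterByExpr, quasi-likelihood F test, Benjamini-Hochberg adjustment over 17615 genes). CPM were TMM-scaled, and log2 CPM used a prior count of 2. Single values and ratios were compared by exact two-sided permutation. Alternatives were DESeq2 1.42.0, limma 3.58.1 (voom with quality weights), RLE scaling, no filter, summed strands, covariates for unmapped reads or sex, and leaving libraries out. The fits were tested on simulated data. Among 40 within-group pairs no library was a copy of another.

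Named were the 4 members, Kcna1, list genes past the threshold (up to 4 per list and comparison, otherwise the 2 with the smallest P), and the 5 genes most like each member, of which 1 is not reported here. The members and lists were chosen with earlier results of these data known. Gene symbols came from RefSeq and GENCODE tables, and 32620 of 55450 identifiers had one.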

Additional observations from a re-analysis of the deposited data

Results flagged for a closer look

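Of 12 sets of libraries, 4 genes in 3 groups, 3 held a library far from the others by Dixon's criterion, which chance meets in about 1 set of 20. In epileptic sgLacZ, library 4 was at 238.3 CPM for Hcn2, with the nearest library at 182 CPM, a gap of 0.681 of the whole range where the critical value is 0.625. The same library was at 8.99 CPM for Hcn4, with the nearest at 3.46 CPM (0.786 of the range). In epileptic sgKcna1, library 1 was at 5.41 CPM for Hcn4, with the nearest at 2.50 CPM (0.725 of the range). Library 4 also had the lowest share of unmapped reads and the highest sums of thalamus and habenula markers in its group, and the part of these in its levels was not tested. Library 1 had a thalamus sum of 269 CPM, of which Calb2 gave 123 CPM, and a habenula sum of 2.33 CPM. Library 12 of its group had a thalamus sum of 338 CPM, of which Calb2 gave 164 CPM, and Hcn4 at 1.49 CPM. Prkcd, another marker of the thalamus list, was at 11.5 CPM in library 1 and at 47.0 CPM in library 12. The part of these markers in the Hcn4 levels was not tested.

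The reads that Pex5l shares with the opposite strand are outside the unstranded counts, and their level differed between groups: the factor between summed and unstranded counts was higher by 0.193 in epileptic sgLacZ than in control sgLacZ.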

How the results depend on the processing

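For 3 contrasts of 4 genes, 7 alternatives with all libraries, 17 fits leaving out 1 library each and the removal of epileptic sgLacZ 4 with epileptic sgKcna1 12 (the last chosen after seeing the data) were run. Calls in epileptic sgLacZ against control sgLacZ depended on the setting. Hcn2 passed with voom (0.32) and with both libraries out (0.28), and ranged over 0.28 to 0.42 with 1 library out, passing in 2 of 17. Hcn3 no longer passed with RLE (0.75), no filter (0.80), summed strands (0.67), the unmapped covariate (0.47), the sex covariate (0.70) or both libraries out (0.54), and passed in 3 of 17 with 1 out (0.54 to 0.88). Hcn4 no longer passed with the unmapped covariate (1.38) or the sex covariate (1.99, adjusted P = 0.0525 by edgeR), and passed in 9 of 17 (1.35 to 2.41). Pex5l reversed with summed strands (0.14).

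Listed genes called numbered 12, 13 with DESeq2, 24 with voom, 3 with the unmapped covariate, 2 with the sex covariate and 0 to 22 with 1 library out. In the treated against the untreated epileptic group they numbered 1 with DESeq2 and 0 to 5 with 1 out, and against control 1 with the unmapped covariate. The share of all tested genes called at each alternative setting is not given here, so these counts describe the settings and not the lists. In epileptic sgLacZ against control, Hcn2 passed at an unadjusted edgeR P of 0.0113 without epileptic sgLacZ 5. With all libraries, Hcn3 only just passed at an unadjusted edgeR P of 0.0055.

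Hcn4 between the epileptic groups was 0.11 with both libraries out and ranged from -0.92 to 0.013 with 1 out. Hcn2 in epileptic sgKcna1 against control ranged from -0.019 to 0.14 in edgeR and from -0.051 to 0.15 in mean log2 CPM. The other mean log2 CPM differences that crossed a threshold with 1 out were Hcn2 between the epileptic groups (-0.42 to -0.22), Hcn3 in epileptic sgLacZ against control (0.48 to 0.79), and Hcn3 (0.27 to 0.41) and Pex5l (-0.18 to -0.091) in epileptic sgKcna1 against control. Log2 ratios that crossed a threshold or 0 were, between the epileptic groups, Hcn4 to Hcn2 (-0.34 to 0.14) and Hcn3 to Hcn2 (-0.091 to 0.16), and against control Hcn3 to Hcn2 (0.24 to 0.45) and Pex5l to Hcn2 (-0.32 to -0.088). The causes were not tested. No paired analysis was possible because the groups share no replicate numbers. Depth limits Hcn4 most, with 5 to 264 reads per library, and intervals cover counting and replicate error together.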
